A study of Mus musculus with 6 samples.

Results

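The immunity-related GTPases (IRG) and the guanylate-binding proteins (GBP) are 2 families of large GTPases whose genes are switched on by interferons. In their best known role they gather on the vacuoles that hold intracellular pathogens, oligomerise there and break or mark the membrane. Interferon-γ acts on these genes through its receptor and the kinases JAK1 and JAK2, at interferon-γ-activated sites (GAS) and through IRF proteins at interferon-stimulated response elements (ISRE). In uninfected tissue, including the heart, their transcripts serve as a readout of interferon signalling. The members described here are the 10 rows of the deposited table named Irgm1, Irgm2, Igtp, Iigp1, Gbp2, Gbp3, Gbp4, Gbp5, Gbp6 and Gbp7, out of 30914 genes in all, that is 4 IRG and 6 GBP genes.

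Poly(A) RNA was sequenced from the hearts of 3 mice of the Ang II group and 3 mice of the Ang II + Tec group, and gene levels were deposited as FPKM, a fragment count scaled to the length of the transcript and to all mapped fragments. All 6 mice were wild-type male C57BL/6J, 8 weeks old, and an osmotic pump infused each with angiotensin II (Ang II) over 4 weeks at 1 μg/kg/min, a model of pathological cardiac hypertrophy. Mice of the Ang II + Tec group also received tectochrysin (Tec), a plant flavonoid, at 5 mg/kg in the last 2 weeks. Both groups carry the Ang II treatment, so the comparison asks how Tec alters the infused heart, and hearts without Ang II were not analysed here. In bulk tissue, fewer cells of a type and less RNA per cell cannot be told apart.

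With Tec, the mean level was lower for 9 of the 10 genes and higher for Gbp4, but no member passed the test over all genes. The 4 IRG genes had a median log2 fold change of -0.40, and the 6 GBP genes one of -0.12. The median of all 13089 genes tested was -0.17, and 80% of those genes also had a lower mean with Tec. On the scale of the whole table, the median of the IRG genes lay below that of all genes and the median of the GBP genes near it. The IRG gap was not seen when libraries were weighted by how well they fitted the model (a median of -0.26 for the IRG genes beside -0.25 for all genes) nor among the 3 libraries with few atrial transcripts, described below (-0.04 beside -0.08).

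The promoters of 7 of these genes were searched for the interferon motifs for which the families are known. RefSeq promoter windows (GRCm38.p6, 250 bases before to 50 bases after the start) were used for 7 members. These were 8 windows, since Gbp3 had a second start, whose window held 0 ISRE cores and 0 GAS. An ISRE core, searched as GAAANNGAAA on both strands, was found in a window of all 7 of them, against 3.44% of 32851 windows of the same length. A GAS, searched as TTCNNNGAA, which reads the same on both strands, was found in 4 of the 7 (Gbp5, Gbp7, Igtp and Irgm2), against 8.3% of all windows. A match is a description of the letters and not a measured binding site. The stretches around the ISRE cores are printed below 5′ to 3′ on the strand of the gene, with the ISRE and any GAS in capitals. They are printed because the ISRE core is a feature that the 7 members searched share beyond their names.
Igtp: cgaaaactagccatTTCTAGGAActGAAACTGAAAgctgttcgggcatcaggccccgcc
Irgm2: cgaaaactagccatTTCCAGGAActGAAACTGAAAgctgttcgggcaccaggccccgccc
Irgm1: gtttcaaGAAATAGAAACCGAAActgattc
Gbp2: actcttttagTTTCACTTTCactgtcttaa
Gbp3: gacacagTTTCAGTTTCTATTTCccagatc
Gbp5: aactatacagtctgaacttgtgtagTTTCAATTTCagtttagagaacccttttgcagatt
Gbp7: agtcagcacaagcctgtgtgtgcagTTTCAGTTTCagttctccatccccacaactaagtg

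The Igtp stretch lies at chr11:58199497-58199555 on the plus strand and ends 1 base before the gene's start, in no annotated exon and outside the models of the members. The Irgm2 stretch lies at chr11:58214888-58214947 on the plus strand, in no annotated exon, within the Irgm2 model, whose longest form begins upstream, within Igtp. Over the 59 bases compared, these stretches differ at 2 positions, T18C and T48C, counted from 1 at the 5′ end of the Igtp stretch, and both carry a GAS followed by an ISRE core in the same spacing. The Irgm1 stretch lies at chr11:48871428-48871457 on the minus strand, inside an annotated exon of a longer Irgm1 form, and holds 2 overlapping ISRE cores.

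In the 4 GBP promoters, the ISRE core reads on the strand opposite to the gene. It begins 59 bases before the start in Gbp2 (chr3:142620594-142620623, with 22 of the 30 bases in an exon of a longer form), 45 bases before it in Gbp3 (chr3:142559992-142560021, upstream of the gene, again as 2 overlapping copies) and 53 bases before it in Gbp7 (chr3:142530258-142530317, upstream of the gene). The Gbp5 core is farther off, 165 bases before the start (chr3:142496744-142496803), in no annotated exon, within the model of a longer Gbp5 form. The Gbp2, Gbp3 and Irgm1 windows held no GAS. The windows held a GAS at 106 and 87 bases before the start of Gbp7 and at 245 and 52 bases before that of Gbp5, outside the stretches printed. No window was available for Gbp4 and Gbp6, and Iigp1 was left out of the search.

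The table's gene positions are those of GRCm38. Gbp5, Gbp7, Gbp3 and Gbp2 form a run on the plus strand of chromosome 3 (from chr3:142493978-142522344 for Gbp5 to chr3:142620602-142638008 for Gbp2). Gbp4 (chr5:105115767-105139586) and Gbp6 (chr5:105270702-105293696) lie on the minus strand of chromosome 5. Irgm1 (chr11:48861968-48871683, minus strand), Igtp (chr11:58199556-58207591) and Irgm2 (chr11:58199618-58222782, both plus strand) lie on chromosome 11, and Iigp1 lies on chromosome 18. Some of these models share sequence. Igtp and Irgm2 overlap on the same strand in 162 exonic bases, 8.01% of the exonic bases of Igtp and 4.39% of those of Irgm2. Of the 75-base stretches in the transcripts of Gbp6, 67.3% also occur in other genes, mainly Gm43302, a model that spans Gbp6 and Gbp10, so the Gbp6 level is uncertain. The share was 11.3% for Gbp7, at most 7.8% for the other members, and 0 for Irgm1 and Iigp1.

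Before the results, the libraries need a description, since they differed within the groups as well as between them. Myl7, the atrial myosin light chain, was at 419, 332 and 0 FPKM in Ang II replicates 1, 2 and 3 and at 0, 1040 and 1.58 in Ang II + Tec replicates 1, 2 and 3, so atrial transcripts differed widely between hearts of the same group. Ventricular cardiomyocyte markers were high throughout, with a sum over 8 genes of 4740 to 6860. Ang II replicates 1 and 2 lay apart from the other libraries on the first principal component (68.7% of the variance), at -31.2 and -46.05, whereas the other 4 lay between 2.39 and 28.6. Mitochondrial transcripts made up 40.15% to 48.9% of the FPKM in the Ang II group and 49.6% to 52.5% in the Ang II + Tec group. Scaling each library by its median of ratios to the mean library, here called median-of-ratios scaling, moved the median log2 fold change of all genes from -0.17 to 0.002 and the share of genes with a lower mean from 80% to 49.6%. For this reason, values on both scales are given below for most directions stated for a group of genes, but not for the subsets of libraries. The number of fragments per library is not given in the sources used here, so no counting interval can be stated.

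Of all members, Gbp2 had the highest level, with a mean over the 6 libraries of 7.49 FPKM. It was followed by Iigp1 at 6.00, Igtp at 5.53, Irgm2 at 4.64, Gbp3 at 4.04, Gbp6 at 3.56, Irgm1 at 2.91, Gbp7 at 2.36, Gbp4 at 1.42 and Gbp5 at 1.14 FPKM. FPKM are scaled by transcript length, which allows this order between genes. Taken library by library the order was less clear, since Iigp1 was above Igtp in 2 of 6 libraries and Irgm2 above Gbp3 in 3 of 6. The ranges over the libraries overlapped for all neighbours in this order except Gbp7 and Gbp4, where the lowest value of Gbp7 (2.01) was above the highest of Gbp4 (1.87). All 10 genes passed the filter on low values (at least 0.5 FPKM in at least 3 libraries).

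**Figure D1:**
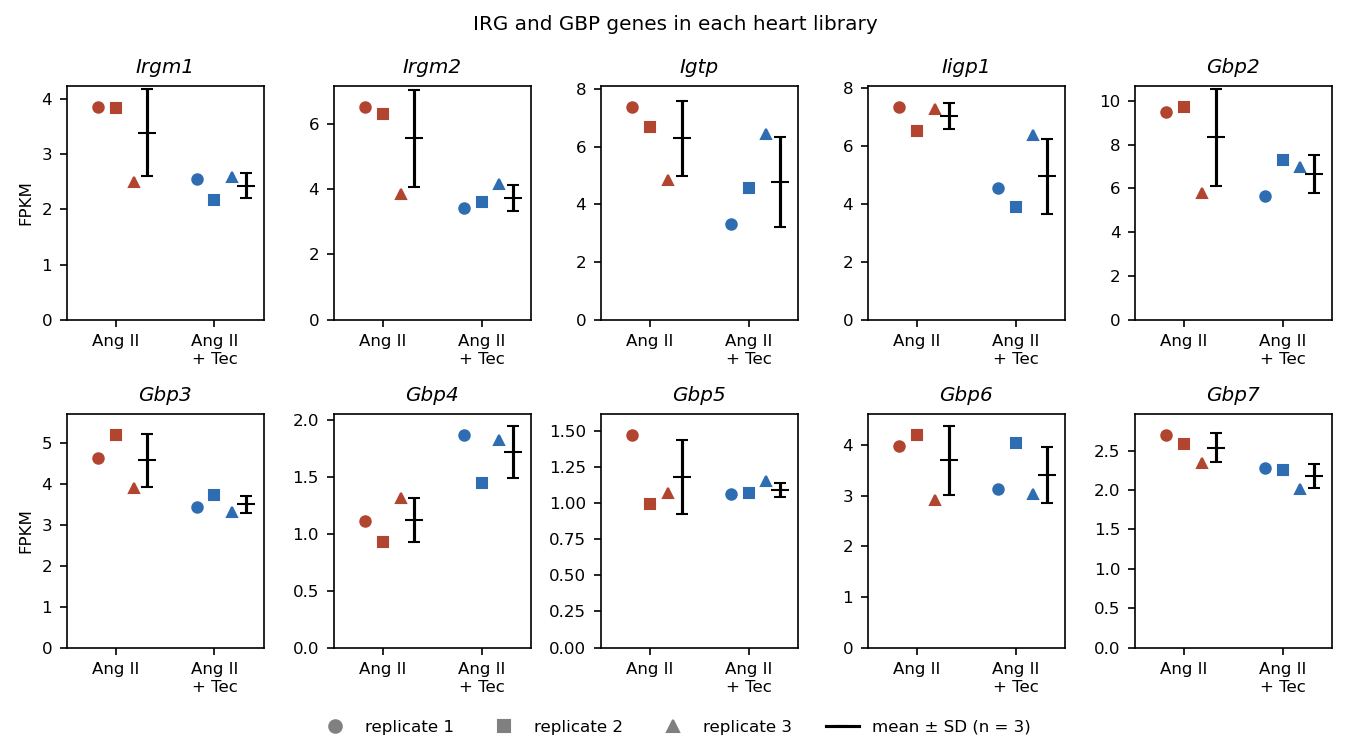
FPKM of each IRG and GBP gene (vertical axes, starting at 0) in the 3 Ang II libraries (red) and the 3 Ang II + Tec libraries (blue), with replicates 1, 2 and 3 as circle, square and triangle and the mean ± SD in black. The groups are apart for Iigp1, Gbp3 and Gbp7, with lower values under Tec, and for Gbp4, with higher values, and they overlap for the other 6 genes.

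Irgm1, Irgm2 and Igtp encode the regulatory IRG proteins, which sit on the cell's own membranes and hold the effector IRG proteins inactive there. Irgm1 measured 3.85, 3.84 and 2.49 FPKM in the 3 Ang II libraries, against 2.55, 2.17 and 2.58 in the 3 Ang II + Tec libraries. The first 2 Ang II libraries were high, while the third lay among the Tec libraries. The means were 3.39 ± 0.782 and 2.43 ± 0.229 FPKM (SD, n = 3 each). The log2 fold change of Irgm1, here and below on the log2(FPKM + 1) scale, which understates the change of low genes, was -0.34 with a standard error of 0.16, and limma gave an adjusted p of 0.291.

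Irgm2 was likewise highest in Ang II replicates 1 and 2, with 6.50, 6.30 and 3.85 FPKM under Ang II and 3.42, 3.59 and 4.16 under Ang II + Tec. Ang II replicate 3 again lay within the range of the Tec group, so the groups overlapped. The mean was 5.55 ± 1.48 FPKM against 3.72 ± 0.388 (SD, n = 3 each). Its log2 fold change was -0.45 with a standard error of 0.19 (limma, adjusted p = 0.265). Igtp, also called Irgm3, was at 7.36, 6.68 and 4.84 FPKM under Ang II and at 3.31, 4.57 and 6.42 under Ang II + Tec. Here Tec replicate 3 was close to the upper Ang II libraries, and the difference of the means (6.29 and 4.77 FPKM) was less than the SD of 1.56 FPKM in the Ang II + Tec group. The log2 fold change of Igtp was -0.36 with a standard error of 0.23 (limma, adjusted p = 0.385). Since the models of Igtp and Irgm2 overlap, their FPKM were also summed, which gave 11.8 ± 2.77 against 8.49 ± 1.95 FPKM (SD, n = 3 each) and an exact two-sided permutation p of 0.2, where 3 libraries against 3 can reach no less than 0.1.

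Iigp1, or Irga6, is an effector IRG protein that coats the vacuole of parasites. It measured 7.34, 6.53 and 7.28 FPKM in the 3 Ang II libraries, against 4.56, 3.90 and 6.38 in the 3 Ang II + Tec libraries. The groups did not overlap, although Tec replicate 3 was only just below the lowest Ang II library. Unlike the regulatory genes, Iigp1 was as high in Ang II replicate 3 as in the other 2 libraries of that group. The means were 7.05 ± 0.451 and 4.95 ± 1.28 FPKM (SD, n = 3 each), with a log2 fold change of -0.46 and a standard error of 0.17. The unadjusted p of Iigp1 from limma was 0.0274 and the adjusted p 0.236, and the exact two-sided permutation p was 0.1, the smallest possible.

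Taken as a sum, the 4 IRG genes amounted to 22.3 ± 3.42 FPKM in the Ang II group and 15.9 ± 3.18 in the Ang II + Tec group (SD, n = 3 each). By library the sums were 25.05, 23.4 and 18.5 against 13.8, 14.2 and 19.5. The highest Tec library was above the lowest Ang II library, so these sums overlapped. All 4 genes had a lower mean with Tec both on the deposited scale and with median-of-ratios scaling, where their median log2 fold change went from -0.40 to -0.21.

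Among the GBP genes, Gbp2 encodes a protein with a lipid anchor that loads onto vacuoles and bacteria. Its levels were 9.49, 9.71 and 5.79 FPKM under Ang II and 5.67, 7.31 and 6.99 under Ang II + Tec. As for Irgm1 and Irgm2, the first 2 Ang II libraries were above all others and the third was among the Tec libraries. The means of Gbp2 were 8.33 ± 2.20 and 6.66 ± 0.869 FPKM (SD, n = 3 each), and its log2 fold change was -0.26 with a standard error of 0.20 (limma, adjusted p = 0.452). Gbp5, which also carries a lipid anchor and takes part in inflammasome activation, was at 1.47, 0.99 and 1.07 FPKM against 1.06, 1.07 and 1.15. A single Ang II library was high for Gbp5, and the other 5 lay close together. Its log2 fold change was -0.05 with a 95% interval of -0.33 to 0.23.

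Gbp3 lies between Gbp7 and Gbp2 on chromosome 3. It measured 4.64, 5.20 and 3.90 FPKM in the 3 Ang II libraries, against 3.44, 3.73 and 3.32 in the 3 Ang II + Tec libraries, without overlap. Its means were 4.58 ± 0.652 and 3.50 ± 0.211 FPKM (SD, n = 3 each). The log2 fold change was -0.31 with a standard error of 0.13 (limma, unadjusted p = 0.0449, adjusted p = 0.261). Gbp7, which is known to take part in assembling the phagocyte oxidase, had 2.70, 2.59 and 2.34 FPKM against 2.28, 2.25 and 2.01, again without overlap but by a small margin. The log2 fold change of Gbp7 was -0.16 with a standard error of 0.11 (limma, adjusted p = 0.417), and its sign turned to 0.01 with median-of-ratios scaling and to 0.03 after quantile normalization. Gbp6 was at 3.99, 4.20 and 2.92 FPKM against 3.14, 4.05 and 3.03, so its groups overlapped widely. Its log2 fold change was -0.09, with a 95% interval of -0.46 to 0.28.

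In the same stretch as Gbp6, Gm43302 is listed at 2.62, 0 and 1.72 FPKM in the 3 Ang II libraries, against 2.10, 0 and 1.77 in the 3 Ang II + Tec libraries. Gbp10 was at 0.23, 1.47 and 0.47 FPKM against 0.26, 1.44 and 0.28, high in the libraries in which Gm43302 is listed at 0. The sum of Gbp6, Gbp10 and Gm43302 was 5.87 ± 0.883 FPKM against 5.36 ± 0.240 (SD, n = 3 each), with an exact two-sided permutation p of 0.4.

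Gbp4 was the member with a higher mean under Tec. A negative effect of the mouse GBP4 protein on IRF7, the factor that drives interferon production, is known from other settings. Gbp4 measured 1.11, 0.93 and 1.32 FPKM in the 3 Ang II libraries, against 1.87, 1.45 and 1.83 in the 3 Ang II + Tec libraries. Every Tec library was above every Ang II library. The means were 1.12 ± 0.195 and 1.72 ± 0.232 FPKM (SD, n = 3 each), 53.3% higher with Tec. Its log2 fold change was 0.36 with a standard error of 0.12 and a 95% interval of 0.07 to 0.65. The unadjusted p of Gbp4 from limma was 0.0216 and the adjusted p 0.229, and the exact two-sided permutation p was 0.1. The difference kept its sign in every alternative run, with log2 fold changes from 0.28 to 0.62, among them 0.49 with median-of-ratios scaling. Gbp4 made up 5.43% ± 1.93 of the summed GBP FPKM in the Ang II group and 9.33% ± 1.79 in the Ang II + Tec group (SD, n = 3 each). The ranges of this share met, with 7.61% in Ang II replicate 3 and 7.30% in Tec replicate 2. The 6 GBP genes together had 21.5 ± 3.56 FPKM under Ang II and 18.6 ± 1.22 under Ang II + Tec, and their median log2 fold change of -0.12 became 0.04 with median-of-ratios scaling, with 2 of 6 lower in place of 5.

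**Figure D2:**
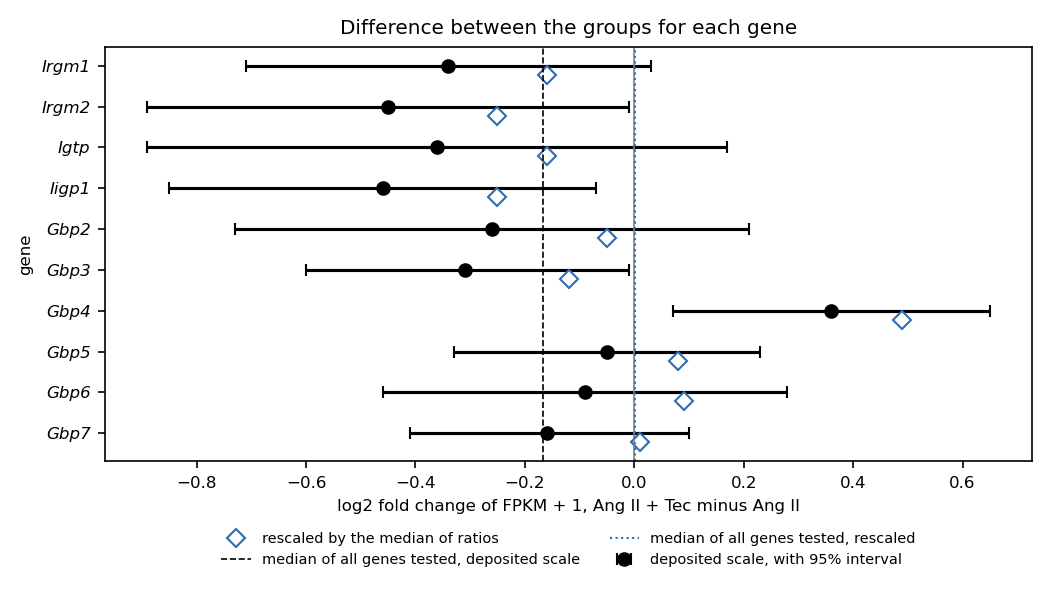
Log2 fold change of FPKM + 1 (Ang II + Tec minus Ang II, horizontal axis) for each gene, as black points with the 95% interval from limma on the deposited scale and as open diamonds with median-of-ratios scaling. The dashed and dotted lines mark the medians of all genes tested on these scales (-0.17 and 0.002). Igtp, Irgm1, Irgm2, Iigp1, Gbp2 and Gbp3 stay below 0 on both, Gbp5, Gbp6 and Gbp7 cross it, and Gbp4 stays above it.

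Across the table, 24 of 13089 genes (0.183%) were called at an adjusted p under 0.05 by limma with Benjamini-Hochberg adjustment, and 0 of the 10 members were among them. At an unadjusted p under 0.05, 3 members were lower with Tec (Irgm2, Iigp1 and Gbp3), where 16.5% of all genes were, and 1 was higher (Gbp4), where 2.09% of all genes were. The groups did not overlap and were lower with Tec for 3 members (Iigp1, Gbp3 and Gbp7), beside 18.9% of all genes. They did not overlap and were higher for Gbp4, beside 2.9% of all genes. With 10 members, each of these counts is about 1 gene above what the share in the whole table would give. The median log2 fold change of the members was -0.28, beside -0.17 for all genes tested. With median-of-ratios scaling it was -0.08 beside 0.002, and 6 of 10 members were then lower beside 49.6% of all genes.

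Members were called with library weights, as given at the end, and when Ang II replicate 3 was left out. Without that library, limma called 5 members: Irgm2 at a log2 fold change of -0.65 (adjusted p = 0.0104), Irgm1 at -0.50 (adjusted p = 0.0209), Gbp2 at -0.48 (adjusted p = 0.0322), Gbp3 at -0.40 (adjusted p = 0.039) and Gbp4 at 0.43 (adjusted p = 0.0411). In that fit 3776 of the 13089 genes were called, and the median log2 fold change was -0.42 for the members beside -0.24 for all genes. Ang II replicates 1 and 2, which then remained, are also the Ang II libraries with high atrial transcripts, and the part of the atrial content in these values was not tested.

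Setting libraries of like atrial content against each other gave different pictures. These comparisons were made on the deposited scale only. Among the libraries with high atrial transcripts (Ang II replicates 1 and 2 against Tec replicate 2), 9 of 10 members were lower, beside 68.0% of all genes. The log2 differences were -0.61 for Irgm1, -0.69 for Irgm2, -0.52 for Igtp and -0.69 for Iigp1. The median was -0.34 for the members beside -0.13 for all genes. Among the libraries with few (Ang II replicate 3 against Tec replicates 1 and 3), 5 of 10 members were lower, beside 69.6% of all genes, with a median of 0.00 beside -0.08. There the differences were 0.03 for Irgm1, -0.02 for Irgm2, -0.05 for Igtp and 0.10 for Gbp2. In both subsets 6 members kept the direction seen over all libraries: Irgm2, Igtp, Iigp1 (-0.37 in the second), Gbp3 (-0.32 and -0.16), Gbp7 (-0.17 and -0.09) and Gbp4 (0.28 and 0.30). A subset has 1 library in one of its groups, so no test was made.

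**Figure D3:**
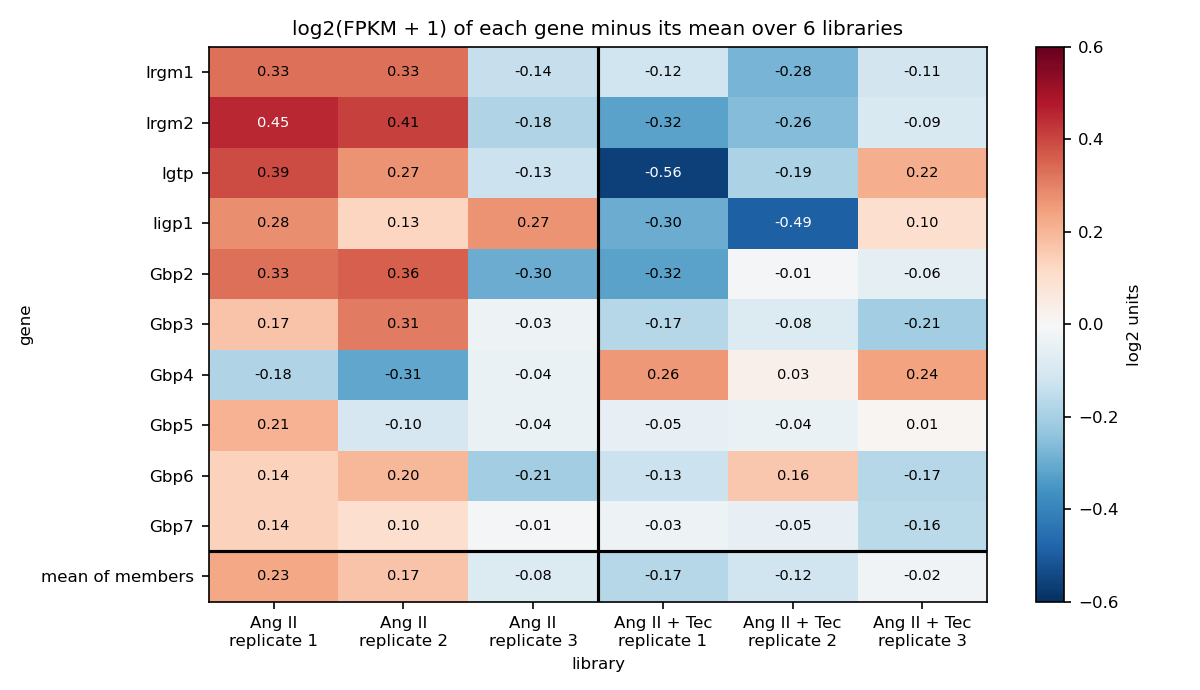
Log2(FPKM + 1) of each gene minus its own mean over the 6 libraries (colour and printed value, log2 units), with genes in rows, libraries in columns and the mean of the 10 genes in the last row. For 6 of the 10 genes the highest values are those of Ang II replicates 1 and 2, with a mean profile of 0.23 and 0.17 there and -0.08 in Ang II replicate 3, whereas Gbp4 is lowest in those 2 libraries and Iigp1 is as high in replicate 3.

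The pattern over libraries separated the members as well. The measure of likeness was the root mean square difference, over the 6 libraries, between the centred log2 profiles of a pair of genes. The nearest member to Irgm1 was Irgm2, and the reverse, at 0.101 log2 units. Gbp3 and Gbp7 were likewise nearest to each other at 0.108. Gbp2 was nearest to Irgm2 at 0.126, nearer than to any gene of its own cluster, and Igtp was nearest to Irgm2 at 0.177. Iigp1 (0.235 from Irgm1) and Gbp4 (0.243 from Gbp5) were farther from their nearest member. The range of a member over the libraries was 0.96 log2 units for Igtp and 0.77 for Iigp1, at one end, and 0.31 for Gbp5 and 0.30 for Gbp7 at the other. The log2(FPKM + 1) scale makes these ranges and distances smaller for low genes. Gbp4, for example, ran from 0.93 to 1.87 FPKM and had a range of 0.57 log2 units. Among 11038 other genes with a mean of at least 1 FPKM, the 10 closest to the mean profile of the members were Asf1a, Etaa1, Polr3c, Med9, Eml1, Ube2r2, Dnajc8, Cnot11, Cpsf3 and Scly, at 0.0204 to 0.0368 log2 units. Asf1a, a histone chaperone, was at 4.97, 4.53 and 3.70 FPKM under Ang II and at 3.51, 3.63 and 3.87 under Ang II + Tec. None of the 10 was in the interferon lists used here. Their log2 fold changes, from -0.27 to -0.19, follow from their being chosen for closeness to that profile. The members themselves lay farther from their mean profile, from 0.102 log2 units for Gbp3 and Gbp7 to 0.337 for Gbp4.

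The other genes of the families were described from a list of 17, of which 7 were tested. Of these, 2 had a lower and 5 a higher mean with Tec, with a median log2 fold change of 0.03 (0.20 with median-of-ratios scaling). Tgtp2, an effector IRG gene, measured 1.60, 1.56 and 2.15 FPKM in the 3 Ang II libraries, against 3.06, 3.11 and 4.22 in the 3 Ang II + Tec libraries. Its near-identical copy Tgtp1 was at 1.67, 1.57 and 1.70 FPKM against 2.05, 2.26 and 3.29. Every Tec library was higher than every Ang II library for both genes. Tgtp2 had a log2 fold change of 0.68 with a standard error of 0.15 (limma, unadjusted p = 0.00234, adjusted p = 0.185), and Tgtp1 one of 0.40 with a standard error of 0.15 (limma, adjusted p = 0.24). Reads of such copies may be divided between them, so their sum was also taken, at 3.42 ± 0.382 FPKM against 6.00 ± 1.32 (SD, n = 3 each, exact two-sided permutation p = 0.1). The remaining gene without overlap and higher with Tec was 9930111J21Rik2, at a mean of 0.28 FPKM against 0.767. Gm12250, a further IRG gene, went the other way, with 1.60, 1.49 and 0.81 FPKM against 0.28, 0.20 and 0.79. Its groups did not overlap, by 0.81 against 0.79, and its log2 fold change was -0.70 with a standard error of 0.20 (limma, adjusted p = 0.218). The IRG genes beside the members thus included values in both directions, with 0 called over all genes by limma. At an unadjusted p under 0.05, 1 was lower and 3 were higher, where 16.5% and 2.09% of all genes were.

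Upstream of the members stand the interferons and their receptors. Ifng was not analysed here, and Ifnb1 was at a mean of 0 FPKM in the Ang II group and 0.01 in the Ang II + Tec group. Of 6 receptor genes tested, 5 had a lower mean with Tec, with a median log2 fold change of -0.34 (4 of 6 and -0.12 with median-of-ratios scaling). Ifngr2, a subunit of the interferon-γ receptor, was at 52.6, 51.05 and 48.8 FPKM under Ang II and at 40.2, 32.4 and 38.8 under Ang II + Tec, without overlap. Its log2 fold change was -0.45 with a standard error of 0.12 (limma, unadjusted p = 0.00697, adjusted p = 0.201). At the other end of the list, Il10rb, which pairs with the interferon-λ receptor, had 27.7 ± 1.72 FPKM against 27.8 ± 0.575 (SD, n = 3 each). Ifngr2 was the 1 receptor gene with an unadjusted p under 0.05, where 16.5% of all genes were lower.

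All 11 tested kinases and transcription factors of interferon signalling had a lower mean with Tec, with a median of -0.25, but 6 of 11 did so with median-of-ratios scaling, with a median of -0.06. By limma, 0 of them were called over all genes and 4 were lower at an unadjusted p under 0.05, where 16.5% of all genes were. Irf7 had the lowest value in the list, at 9.59, 8.41 and 4.96 FPKM under Ang II against 3.11, 2.92 and 4.01 under Ang II + Tec, without overlap and with a log2 fold change of -0.96 and a standard error of 0.23 (limma, adjusted p = 0.197). Irf1, the factor best known for inducing GBP genes, had 4.64 ± 0.643 FPKM against 4.10 ± 0.455 (SD, n = 3 each), a difference within the spread. Irf8 was at 0.927 ± 0.415 against 0.593 ± 0.0416 FPKM (SD, n = 3 each). Jak2 was the highest of the list, with a log2 fold change of -0.01. Nlrc5 was below the filter, at a mean of 0.367 against 0.37 FPKM.

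Negative regulators of the pathway, among them phosphatases and SOCS proteins, were lower in mean for 8 of 8 genes tested, with a median of -0.31 (6 of 8 and -0.12 with median-of-ratios scaling). The lowest was the phosphatase gene Ptpn6, at -0.59 with a standard error of 0.25, and the highest Ptpn11 at -0.01. Other genes known to be induced by interferon-γ had values in both directions. Of 16 tested, 11 had a lower mean and 5 a higher one, with a median of -0.11, which became 0.10 with 6 of 16 lower with median-of-ratios scaling. B2m, the light chain of MHC class I, was the lowest at -0.57 (331 ± 93.9 against 217 ± 24.7 FPKM, SD, n = 3 each). H2-Aa, an MHC class II chain, was the highest at 0.34 (7.52 ± 3.39 against 9.24 ± 1.41 FPKM). In these lists 0 genes were called over the table by limma. An unadjusted p under 0.05 was found for 1 of 8 negative regulators and 5 of 16 induced genes, all of them lower with Tec. Over all genes, 16.5% were lower and 2.09% higher at that level.

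Downstream, IRG and GBP proteins rely on the ATG8 conjugation machinery to reach the right membranes. The 18 tested genes of this list had a median of -0.15, close to that of all genes, with Atg5 the lowest at -0.44 and the autophagy receptor gene Sqstm1 the highest at 0.28. With median-of-ratios scaling, 6 of 18 were lower in place of 14, and the median was 0.05. Of 4 tested genes for caspases and inflammasome proteins, all had a lower mean on both scales, with medians of -0.32 and -0.17. Pycard, the adaptor of inflammasomes, was at 2.99, 3.92 and 2.65 FPKM under Ang II and at 1.45, 1.70 and 1.51 under Ang II + Tec. Its groups were well apart, with a log2 fold change of -0.70 and a standard error of 0.14 (limma, unadjusted p = 0.00136, adjusted p = 0.175), while Casp1, the highest of the list, was at -0.23. The 5 genes for the enzymes that attach and process the lipid anchor of GBP proteins had a median of -0.20 (-0.02 with median-of-ratios scaling), from -0.47 for Rce1 to -0.10 for Fntb. In these downstream lists 0 genes were called over the table by limma. At an unadjusted p under 0.05, 1 gene of the ATG8 list, 1 of the caspase list and 0 of the lipid anchor list were lower, where 16.5% of all genes were.

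**Figure D4:**
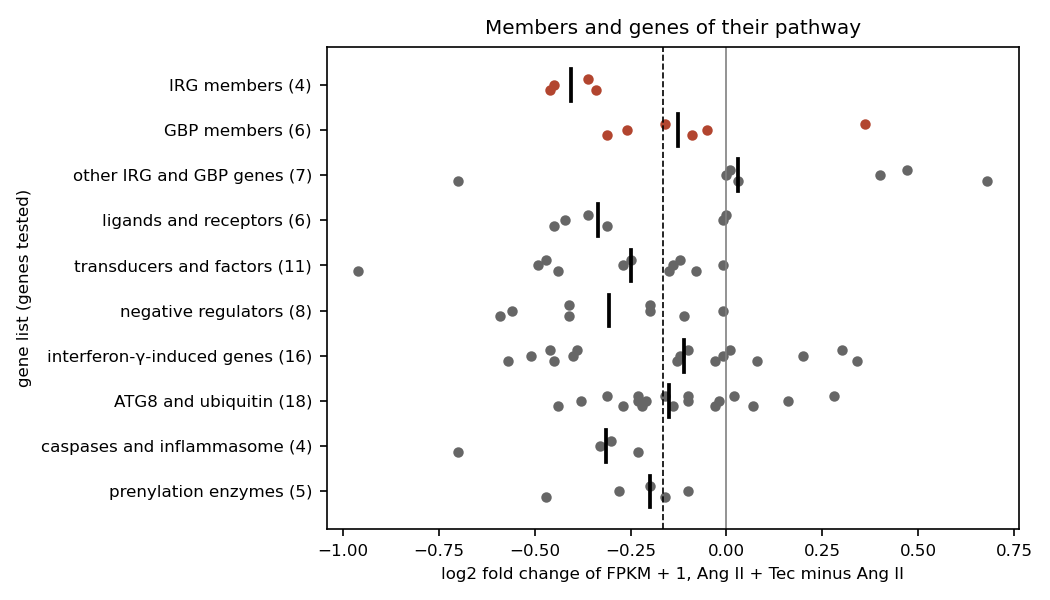
Log2 fold change of FPKM + 1 (Ang II + Tec minus Ang II, horizontal axis, deposited scale) of each tested gene, in rows for the IRG and GBP members (red) and 8 lists of related genes (grey), with the median of a row as a black bar and the median of all genes tested (-0.17) as a dashed line. The IRG genes lie together between -0.46 and -0.34, while the row of other IRG and GBP genes runs from -0.70 for Gm12250 to 0.68 for Tgtp2. Median-of-ratios scaling moves all rows upwards and turns the medians of the GBP, interferon-γ-induced and ATG8 rows above 0.

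Several cell types of the heart express IRG and GBP genes, so markers of these cells were read in the same libraries. Macrophage and monocyte markers were lower in mean with Tec for 11 of 12 genes (11 of 12 also with median-of-ratios scaling), with a median of -0.83. Their summed level was 372, 561 and 287 FPKM in the 3 Ang II libraries, against 196, 195 and 214 in the 3 Ang II + Tec libraries, without overlap. C1qa, for example, was at 67.9, 82.5 and 47.4 FPKM against 26.3, 28.1 and 32.3. The macrophage markers thus had a lower group mean with Tec, as the IRG genes did, by a larger amount. The order of the libraries was not the same in these sums. In Ang II replicate 3 the macrophage sum was above every Tec library, whereas the IRG sum (18.5 FPKM) was below that of Tec replicate 3 (19.5 FPKM). The macrophage sum rests largely on abundant genes such as Lyz2 (134.94 FPKM in Ang II replicate 3). Of the 12 markers, 9 were lower without overlap, beside 18.9% of all genes, and 3 overlapped. Among the latter, Adgre1 was at 5.44, 9.10 and 2.63 FPKM under Ang II and at 2.68, 2.07 and 2.48 under Ang II + Tec. The part of macrophages in the result was not tested.

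Fibroblast markers were lower in mean for 7 of 7 genes on both scales, with summed levels of 645, 851 and 161 FPKM against 135, 222 and 151. As with Irgm1, Irgm2 and Gbp2, it was Ang II replicate 3 that lay near the Tec libraries, and the part of fibroblasts in those values was not tested either. Endothelial markers differed less, with summed levels over 10 genes of 151 to 168 FPKM against 138 to 156, and 8 of 10 lower (3 of 10 with median-of-ratios scaling). Of 12 markers for T and NK cells, which make interferon-γ, 11 were below the filter, and the sums were 1.20 to 2.33 FPKM against 1.25 to 3.25. Cd3d, Cd3e and Cd3g, the genes that define T cells, were at 0 to 0.09 FPKM in all libraries. Other T cell genes of the list were higher. Trac, which passed the filter, was at 1.07, 0.86 and 0.62 FPKM under Ang II and at 0.49, 2.54 and 0.52 under Ang II + Tec. Trbc2 was at 0 to 0.53 FPKM. B cell markers (sums of 4.27 to 5.13 against 2.58 to 3.83 FPKM) and neutrophil markers (0.33 to 3.15 against 0.34 to 2.91 FPKM, with Ly6g at 0 in all libraries) were low as well. The B cell sum was mostly Ighm, at 3.90, 4.65 and 3.73 FPKM under Ang II against 3.11, 2.63 and 2.27 under Ang II + Tec, without overlap. The other 4 B cell markers were below the filter. Erythroid markers were lower in mean for 5 of 5 genes on both scales, with sums of 648, 1020 and 248 FPKM against 526, 376 and 147 and a median of -0.66. Adipocyte markers stood apart in Tec replicate 2, with sums of 11.8, 33.4 and 0.86 FPKM against 0.23, 78.7 and 2.65. Smooth muscle and pericyte markers had sums of 228 to 462 against 188 to 348 FPKM. The part of these cells in the members' values was not tested.

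**Figure D5:**
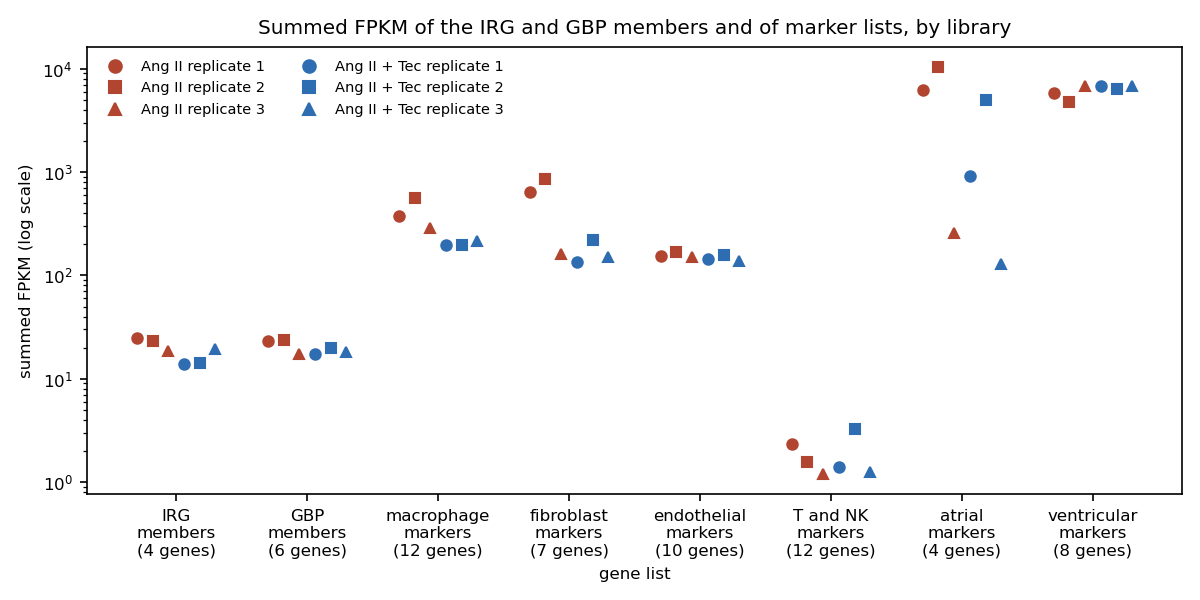
Summed FPKM (log scale) of the IRG and GBP members and of marker lists for cell types, with 1 point per library in the colour of its group and the shape of its replicate number. Macrophage sums of the Ang II libraries (287 to 561) are all above those of the Ang II + Tec libraries (195 to 214), fibroblast and atrial sums are low in Ang II replicate 3, and the T and NK sums stay at or below 3.25.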

How the data were processed

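RNA of 6 mouse hearts (3 Ang II, 3 Ang II + Tec) was sequenced after poly(A) selection. The authors trimmed reads with Cutadapt, and the submitters' processing notes list HISAT2 2.0, StringTie 1.3.0, Bowtie 0.12.2 and the build mm8. The deposited values are FPKM. Gene positions equal those of GENCODE M21 on GRCm38 for 27947 of 30832 genes, so GRCm38 was used.

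Genes with at least 0.5 FPKM in at least 3 libraries (13089) entered a linear model of log2(FPKM + 1) with limma 3.58.1 in R 4.3.3 (eBayes with trend, no covariate), with Benjamini-Hochberg adjustment and a threshold of 0.05. The fit was tested on simulated data. Single values were also compared by exact permutation over the 6 libraries.

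The members and gene lists were chosen with earlier results of these data known. The genes named are the members, the lowest and highest tested gene of each pathway list (not of the marker lists), Irf1, Irf8, Nlrc5 and the 10 genes nearest to the mean profile, and 1 further gene of this rule is not reported here. Tgtp1, 9930111J21Rik2, Gbp10, Gm43302, Ifnb1, Myl7, C1qa, Adgre1, Lyz2, Ighm, Ly6g and the T cell genes were named after their values were seen. Alternatives changed the pseudocount, filter, scaling, replicate block, variance model and library weights, and left out each library. Sums of overlapping genes and subsets by atrial transcripts were added after seeing the data. Promoter windows are from RefSeq (GRCm38.p6). Proteins were not used here.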

Additional observations from a re-analysis of the deposited data

How the results depend on the processing

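The 24 genes called over the whole table became 3 with no filter on low values, 13 with a filter of 1 FPKM in all libraries and 3542 with library weights (a fit that stopped before its convergence tolerance was reached), and from 2 to 3776 when 1 library was left out, the latter without Ang II replicate 3. The number of members called was 0 in the main fit, 2 with library weights (Gbp3 at -0.43, adjusted p = 0.032, and Gbp4 at 0.49, adjusted p = 0.0287), and 0 to 5 when 1 library was left out, with 5 without Ang II replicate 3 and 0 without any other. The median log2 fold change of the members (-0.28) was -0.08 by the median of ratios, -0.07 by quantile normalization and 0.00 in the libraries with few atrial transcripts. In those libraries 5 members were lower in place of 9, beside 69.6% of all genes. The median of the members ranged from -0.42 to -0.17 when 1 library was left out. The sign turned for Gbp5 (0.08 by the median of ratios, 0.11 by quantile normalization, 0.07 with library weights, and -0.11 to 0.04 when 1 library was left out, the latter without Ang II replicate 1), for Gbp6 (0.09 and 0.11 by the same scalings) and for Gbp7 (0.01 and 0.03). In the libraries with few atrial transcripts it turned for Irgm1 (0.03), Gbp2 (0.10), Gbp5 (0.02) and Gbp6 (0.06). Irgm2, Igtp, Iigp1, Gbp3 and Gbp4 kept their sign in every alternative run for them, but Igtp (-0.36) went to -0.13 and Iigp1 (-0.46) to -0.16 with library weights, Igtp to -0.17 without Ang II + Tec replicate 1, and Igtp to -0.05 and Irgm2 (-0.45) to -0.02 in the libraries with few atrial transcripts. The cause of these changes was not tested. The deviations of same-numbered libraries correlated at -0.039, 0.429 and 0.379, and those of differently numbered libraries at -0.435 to 0.226. These values do not settle whether the numbers are pairs, and the main fit did not take them as pairs. With the number as a replicate block, 23 genes and 0 members were called. With 3 libraries a group and no fragment totals, the spread between hearts is the only error given, and low genes such as Gbp5 are the least certain.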
